A study of Mus musculus with 4 samples.

Results

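The genes described here are 10 markers of tissue macrophages and their antibacterial enzymes, measured in mouse salivary glands (SGs): the receptors Cd163, Mrc1, Emr1, Csf1r, Cd14, Fcgr1 and Mertk, the lysosomal glycoprotein gene Cd68, and the lysozyme genes Lyz1 and Lyz2. They were taken by name from the array's annotation, as 10 of 34844 names on the array, and none was picked by its value. RNA came from submandibular and sublingual glands of female C57/BL6 mice at 10 weeks of age, with 2 arrays labelled Myd88-KO (genotype Myd88-null) and 2 labelled Wildtype (genotype wild type). The Myd88-KO line lacks the gene in all cells, and per the study's methods both genotypes were offspring of heterozygous parents on a C57 background. The study's legends give more samples for each genotype than were analysed here and name the submandibular gland alone, whereas the labels of all 4 arrays name both glands. No label states that the arrays of a group are separate animals, so p-values measure only the spread between these arrays.

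Macrophages settle in most organs before and after birth, survive on signals through the receptor Csf1r, and clear dead cells, antibodies and debris through surface receptors. MyD88 is the adaptor through which most Toll-like receptors, including those that work with CD14, switch on NF-kB and inflammatory genes in these cells. Lysozymes cut the cell wall of bacteria. In mice Lyz2 is the enzyme of macrophages and neutrophils, and Lyz1 is best known from Paneth cells of the gut. Saliva contains lysozyme as one of its constant defence proteins.

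All 10 genes were tested, through 14 probes of 60 bases with 1 spot each. Csf1r has 3 probes, Emr1 and Cd68 have 2 each, and the brightest probe stood for its gene. The sequences of 3 probes are shown because the largest differences and the lysozyme pattern rest on them. They are in lower case, with no part singled out, and their positions are on NCBI37/mm9. The Cd163 probe lies on the plus strand at chr6:124270436-124270495 and starts at base 2610 of its transcript. The first Emr1 probe lies on the plus strand at chr17:57620350-57620409, from base 2732. The Lyz2 probe lies on the minus strand at chr10:116719175-116719234, from base 94.
Cd163 probe: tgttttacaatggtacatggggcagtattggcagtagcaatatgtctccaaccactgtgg
Emr1 probe: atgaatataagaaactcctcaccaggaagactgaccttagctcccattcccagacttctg
Lyz2 probe: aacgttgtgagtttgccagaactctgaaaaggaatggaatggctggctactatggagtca

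Of the others, the second Emr1 probe lies at chr17:57622868-57622927, from base 3160, and the Lyz1 probe at chr10:116724862-116724921, from base 1194. The remaining probes start at base 4940 of Mrc1 (chromosome 2), 3497 of Mertk (chromosome 2), 2522 of Fcgr1 (chromosome 3), 1110 and 443 of Cd68 (chromosome 11), 1189 of Cd14 and 1841, 2871 and 3806 of Csf1r (both genes on chromosome 18).

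Values are log2 signals relative to the 75th percentile of the array, which was 237 to 321 intensity units, and differences are Myd88-KO minus Wildtype. Between 29078 and 41281 of 55681 probes were well above background on an array, by the scanner software's own flag. The lowest number was on Myd88-KO 1 and the highest on Wildtype 1. The 14 gland markers examined, among them Klk1, Aqp5, Muc19 and Dcpp1, were well above background on every array. The Myd88 probe, whose relation to the deleted exons is not given in the sources used here, read 1.51 and 1.41 on Myd88-KO arrays and 1.15 and 1.07 on Wildtype arrays. It therefore does not check the labels. Over the 22312 genes tested, limma called 0 (0%) at an adjusted p of 0.05, while 3715 (16.7%) had an unadjusted p under 0.05.

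As a group the macrophage genes were nearly level. The median log2 difference of the 10 was 0.026, beside 0.062 over all genes tested, with 6 higher and 4 lower by mean on Myd88-KO arrays. The split turned to 4 higher and 6 lower when each array was scaled by the 75th percentile of its detected probes or by its median. limma called 0 of the 10 after adjustment over all genes, and 1 gene, Emr1, had an unadjusted p under 0.05. For 8 of the 10 the difference was under 0.5 on the log2 scale, a size that 83.7% of all genes tested also stayed below. The arrays of the groups were apart for 4 genes: Cd163, Emr1 and Cd14 were higher and Lyz1 was lower on Myd88-KO arrays. Among all genes, 52% had arrays apart, 33.2% in the higher and 18.7% in the lower direction, so the share of the 10 was no larger than the background. With 2 arrays against 2, an exact two-sided permutation test cannot give a p below 0.333. In whole-gland RNA, fewer macrophages and less of a transcript per macrophage cannot be told apart.

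**Figure D1:**
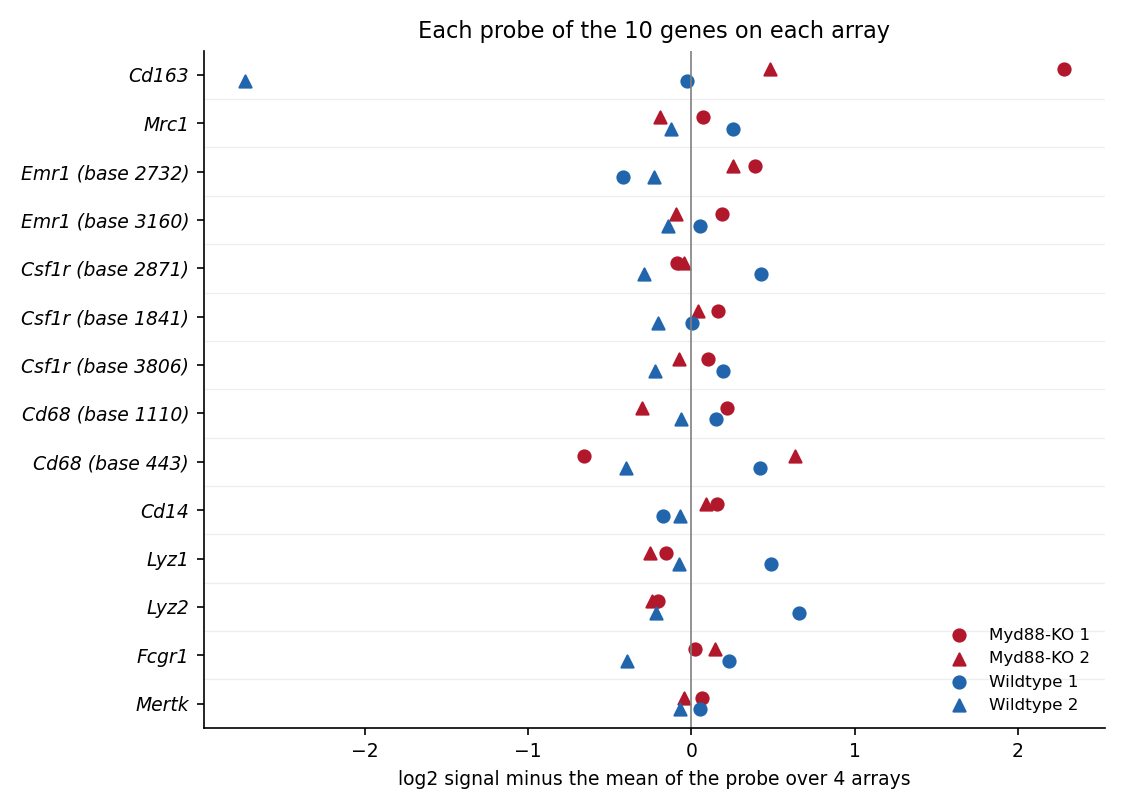
Each row is 1 of the 14 probes, and the x axis gives its log2 signal on each array minus its mean over the 4 arrays; red marks Myd88-KO, blue marks Wildtype, circles are replicate 1 and triangles replicate 2. Most rows lie within 0.5 of their mean, Cd163 spreads from -1.47 on Myd88-KO 1 to -6.49 on Wildtype 2 in log2 signal, and both lysozyme genes stand out on Wildtype 1.

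Cd163, the scavenger receptor that takes up haemoglobin bound to haptoglobin, had the largest difference and also the widest spread. Its log2 signal was -1.47 and -3.27 on Myd88-KO arrays and -3.78 and -6.49 on Wildtype arrays. Both Myd88-KO arrays lay above both Wildtype arrays, but Wildtype 2 was not well above background, so the group was measured on 1 of 2 arrays. The means were -2.37 ± 1.27 and -5.13 ± 1.92 (SD, n = 2 each). They differed by 2.76 on the log2 scale, with a 95% interval from -0.64 to 6.16 and a standard error of 1.19. The adjusted p from limma was 0.358. It was 1.41 without Wildtype 2, 1.86 without Myd88-KO 1, 3.66 without Myd88-KO 2 and 4.12 without Wildtype 1. With each signal below background set to the lowest one above it, it was 1.68. Normexp background correction gave 0.85. Across the alternatives the adjusted p ranged from 7.9e-05, under median scaling, to 0.659.

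Emr1, now named Adgre1, encodes the adhesion receptor known as the classical surface marker of mouse macrophages. Its brightest probe read 0.40 and 0.26 on Myd88-KO arrays and -0.41 and -0.22 on Wildtype arrays, so the groups were apart and the gap exceeded the spread within either. The log2 difference was 0.65 (standard error 0.13, 95% interval 0.28 to 1.01), or 1.57-fold, with an adjusted p of 0.204 from limma. The probe shown above carries this difference, and the second one does not show it to the same extent. From base 3160 of the transcript, the second probe read 0.10 and -0.18 on Myd88-KO arrays and -0.035 and -0.23 on Wildtype arrays, which overlap. Its log2 difference was 0.091 (95% interval -0.37 to 0.55). The mean of both probes differed by 0.37. The gene kept a positive difference in all 16 alternatives, between 0.37 and 0.74, and the adjusted p ranged from 0.068 to 1.00.

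Cd14, the co-receptor that hands lipopolysaccharide to Toll-like receptor 4, is the member closest to MyD88 signalling. It read 0.43 and 0.36 on Myd88-KO arrays and 0.10 and 0.20 on Wildtype arrays. The arrays were apart, by a small step: the log2 difference was 0.24 (95% interval -0.06 to 0.54, adjusted p = 0.361 from limma). With each array left out it stayed between 0.19 and 0.29. Of its partners at the same receptor, Tlr4 differed by 0.21, Ly96, which encodes the subunit MD-2, by 0.10, and Lbp, the serum protein that loads lipopolysaccharide onto CD14, by -0.59 (adjusted p = 0.250 from limma).

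Csf1r, the receptor on which macrophage survival depends, differed by less than the spread between arrays. Its brightest probe read 4.48 and 4.30 on Myd88-KO arrays against 4.57 and 4.15 on Wildtype arrays, with the Wildtype arrays on either side of the others. The log2 difference was 0.029, with a 95% interval from -0.52 to 0.58. The other probes were much dimmer. From base 1841 the probe read 1.31 and 1.19 against 1.15 and 0.94, a difference of 0.20 with the arrays apart. From base 2871 it read -0.42 and -0.37 against 0.10 and -0.62, a difference of -0.14 with the arrays overlapping. The Csf1r ligands Csf1 and Il34 differed by 0.16 and 0.33 (limma, adjusted p = 0.499 and 0.297), and both were higher on each Myd88-KO array than on either Wildtype array.

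Mertk, a receptor through which macrophages engulf dying cells, was the most even of the 10. It read -0.42 and -0.53 on Myd88-KO arrays and -0.43 and -0.56 on Wildtype arrays. The log2 difference was 0.023 with a 95% interval from -0.30 to 0.34. This bounds a change of either sign more tightly than for any other of the 10 genes, though the Cd14 interval (-0.06 to 0.54) was narrower. Of the relatives of Mertk in the TAM family, Axl differed by -0.0040 and Tyro3 by 0.48 (limma, adjusted p = 0.206), with its arrays apart. The bridging ligands Gas6 and Pros1 differed by 0.15 and -0.25.

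Mrc1, the mannose receptor of tissue macrophages, read 0.25 and -0.019 on Myd88-KO arrays and 0.43 and 0.049 on Wildtype arrays. The groups overlapped, with a log2 difference of -0.12 (95% interval -0.68 to 0.43). Cd68, a lysosomal membrane protein rich in phagocytes, read 2.30 and 1.78 against 2.23 and 2.02. Its log2 difference was -0.086 (95% interval -0.73 to 0.56). The other probe, at base 443, read -3.17 and -1.88 against -2.09 and -2.91, a log2 difference of -0.023. Fcgr1, the high-affinity IgG receptor, read -2.32 and -2.19 against -2.11 and -2.74, a log2 difference of 0.17 (95% interval -0.56 to 0.89). The Wildtype arrays of Fcgr1 enclosed both Myd88-KO arrays. Fcer1g, the signalling chain that Fcgr1 needs, differed by -0.076.

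**Figure D2:**
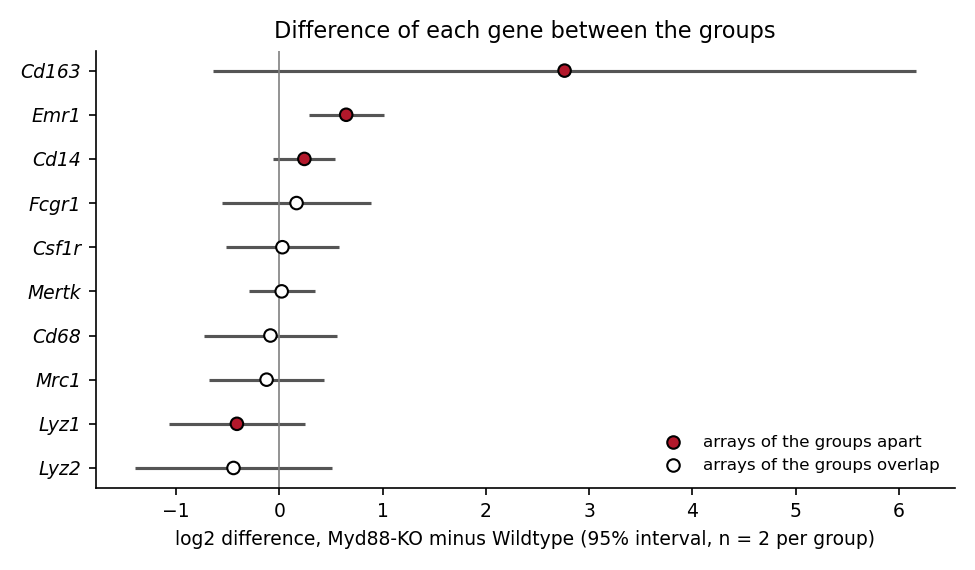
Points give the log2 difference of each gene (Myd88-KO minus Wildtype, 2 arrays per group) and lines its 95% interval from limma; filled points are genes whose arrays do not overlap between groups. The interval leaves out 0 for Emr1 alone, at 0.28 to 1.01, before any adjustment for the number of genes.

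Both lysozyme genes were highest on the same array, Wildtype 1. Lyz1 read 3.53 and 3.43 on Myd88-KO arrays and 4.18 and 3.61 on Wildtype arrays. Lyz2 read 0.95 and 0.91 on Myd88-KO arrays and 1.81 and 0.93 on Wildtype arrays. In both, the other 3 arrays were close to each other. The Lyz1 arrays were apart and the Lyz2 arrays overlapped. The log2 difference was -0.41 for Lyz1 (95% interval -1.07 to 0.25, adjusted p = 0.448 from limma) and -0.44 for Lyz2 (95% interval -1.40 to 0.51, adjusted p = 0.561 from limma). Without Wildtype 1 these became -0.13 and -0.0047, and without Wildtype 2 they became -0.69 and -0.88. The size of both differences thus rests on 1 array. Wildtype 1 was also the highest array for Mrc1, Csf1r and Fcgr1, and so for 5 of the 10 genes.

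Lyz1 and Lyz2 are neighbouring copies on chromosome 10, with starts 10596 bases apart, and copies can share signal. Their promoters are shown because the genes gave the same array pattern. The 250 bases before each start, from RefSeq (GRCm38.p6, minus strand), lie at chr10:117292869-117293118 for Lyz1 and chr10:117282273-117282522 for Lyz2. Capitals mark bases that differ between both or face a gap in a global alignment.
Lyz1 promoter: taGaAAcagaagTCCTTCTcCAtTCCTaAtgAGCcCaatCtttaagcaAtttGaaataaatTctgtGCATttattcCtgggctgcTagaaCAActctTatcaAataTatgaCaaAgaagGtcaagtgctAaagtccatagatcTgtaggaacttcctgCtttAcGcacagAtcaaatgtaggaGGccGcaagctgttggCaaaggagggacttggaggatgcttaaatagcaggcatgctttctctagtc
Lyz2 promoter: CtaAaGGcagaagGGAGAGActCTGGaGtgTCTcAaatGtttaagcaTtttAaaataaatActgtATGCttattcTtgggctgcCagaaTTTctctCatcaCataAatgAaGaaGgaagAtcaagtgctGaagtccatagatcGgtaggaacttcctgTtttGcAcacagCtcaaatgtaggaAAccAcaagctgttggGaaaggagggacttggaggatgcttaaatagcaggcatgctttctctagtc

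The promoters matched in 200 of 252 alignment columns (79.4%), in 92 of the 100 columns next to the start, and without a break over the last 50. The table held a window for 7 of the 10 genes. Motifs were searched on both strands of the 250 bases. The NF-kB consensus was found in 0 of the 7 and in 7.25% of all 32851 windows. A form of it that allows any bases in its middle but only A at the purine before them was in 3 of the 7 (Cd163, Mertk and Mrc1) and in 17.6% of all. The AP-1 motif TGANTCA was found in Cd68 alone of the 7, and in 6.75% of all windows. The motif TTGCNNAA of C/EBP factors was found in Cd68 and Lyz1, and in 9.56% of all. The PU.1 motif GAGGAAGT was in 0 of the 7 and in 2.44% of all. A match is a description of letters only.

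Genes related to the 10 were followed in lists by role. Of 11 tested ligands and partners, 6 were higher and 5 lower by mean, with a median log2 difference of 0.069, and limma called 0. At an unadjusted p under 0.05 in limma there were 1 higher and 2 lower, beside 9.82% and 6.83% of all genes. Il34 was at the upper end, with 0.33, and Lbp at the lower end, with -0.59. Hp, the haptoglobin that carries haemoglobin to CD163, read 3.84 and 3.83 on Myd88-KO arrays and 4.34 and 4.37 on Wildtype arrays. It differed by -0.52 (limma, adjusted p = 0.203), the opposite direction to Cd163. Hmox1, which breaks down haem, differed by 0.069. Of the other Fc gamma receptor genes, Fcgr4 was highest with 0.28 and Fcgrt, the neonatal Fc receptor, lowest with -0.49. Between them Fcgr3 differed by 0.021 and the inhibitory Fcgr2b by -0.43. Of 4 tested lysozyme-like genes, 3 were higher and 1 lower, from -0.30 for Lyzl4 to 0.64 for Spaca3, and Lyzl1 and Spaca5 were well above background on no array.

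Other receptors of macrophages were lower by mean in most cases. Of 22 tested scavenger and lectin receptors, 17 were lower and 5 higher by mean on Myd88-KO arrays, with a median of -0.40. Siglec1, Cd209a, Cd209b and Timd4, all lower, were tested only because both Wildtype arrays were well above background. Over the 18 well above background on all arrays, 13 were lower and 5 higher, with a median of -0.37. limma called 0 of the 22, and 8 lower and 2 higher genes had an unadjusted p under 0.05, beside 6.83% and 9.82% of all genes. Their summed signal, in units of the 75th percentile, was 96.2 and 92.4 on Myd88-KO arrays and 81.9 and 86.9 on Wildtype arrays, which without the bright probes of Itgam and Marco became 20.2 and 20.7 against 27.8 and 26.3. The lower end was Cd209b, a lectin of marginal-zone and lymph-node macrophages. It read -6.11 and -3.98 on Myd88-KO arrays, neither well above background, and -1.10 and -2.24 on Wildtype arrays. As read, its log2 difference was -3.38, with a 95% interval from -5.91 to -0.84 (adjusted p = 0.240 from limma). For a floor, each dim array took its own reading or, if higher, that of the dimmest probe that passed the background flag. The mean was then 4.94-fold lower on Myd88-KO arrays, a value for the array means and not a lower limit. The upper end was Vsig4, a complement receptor of resident macrophages, with -2.41 and -2.21 against -3.02 and -3.27. It differed by 0.84 (limma, adjusted p = 0.203), with its arrays apart. Marco differed by 0.65 and Cd36, which adipocytes and endothelium also make, by -0.88. Msr1 was well above background on 1 array only and was not tested.

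Of 15 other genes with high expression in macrophages, 11 were lower and 4 higher, with a median of -0.22, which became 0.049 without Wildtype 1. limma called 0 of the 15, and 1 gene had an unadjusted p under 0.05, beside 16.7% of all genes tested. This gene was Cd83, at the lower end with -1.49, which activated dendritic and B cells also make. Lst1 was at the upper end with 0.28. The complement genes C1qa, C1qb and C1qc, made in tissues largely by macrophages, differed by -0.0070, 0.066 and -0.027. Of 7 tested myeloid transcription factors all were lower on Myd88-KO arrays, with a median of -0.53. In each the arrays were apart, as in this direction for 18.7% of all genes. limma called 0, and 5 had an unadjusted p under 0.05, beside 6.83% of all genes in the lower direction. The factors ran from Klf4 (-0.33) to Pparg (-1.17), the master regulator of fat cells. Irf8, which B cells and dendritic cells also use, differed by -1.08. Spi1, which encodes PU.1 and is listed under its older name, was well above background on 1 array only.

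**Figure D3:**
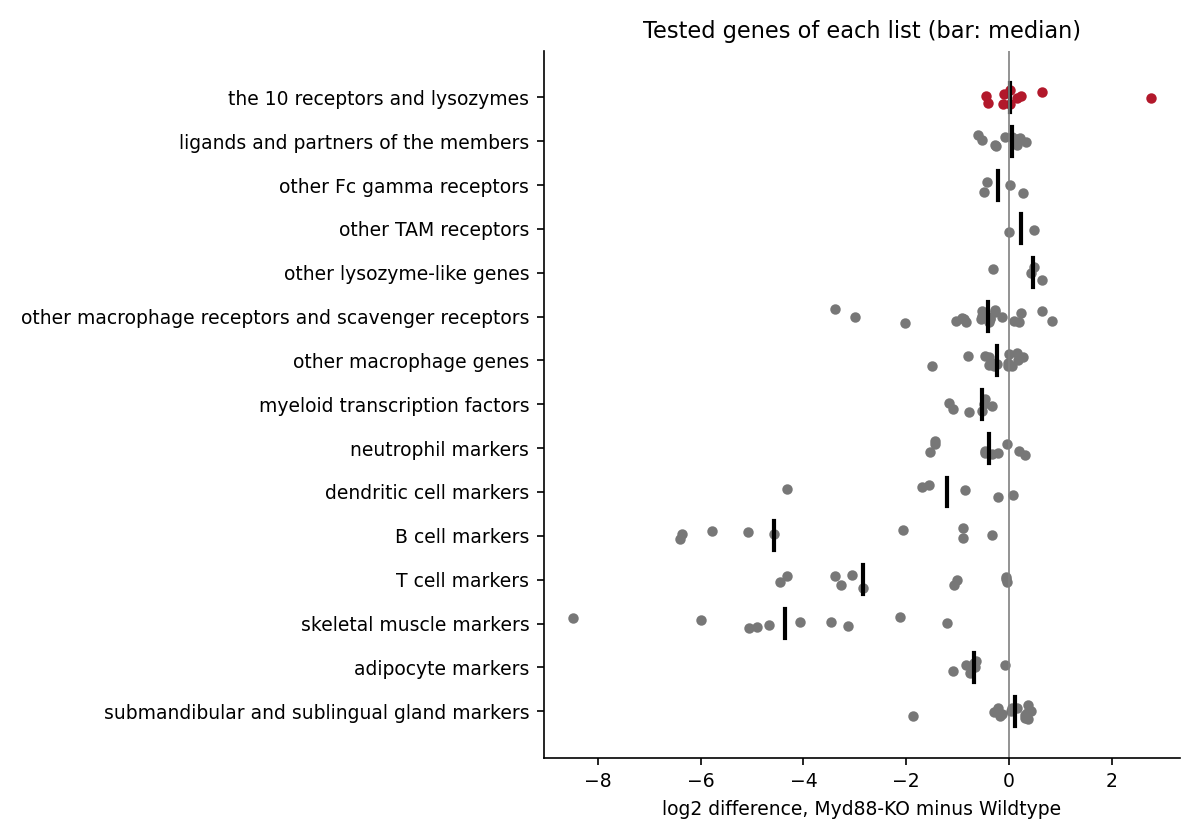
Each point is a tested gene, placed by its log2 difference (Myd88-KO minus Wildtype), and the black bar is the median of its list; the 10 receptors and lysozymes are in red. Their median is 0.026, beside -4.57 for B cell and -4.36 for skeletal muscle markers, which include genes at background on Myd88-KO arrays and become -0.90 and -3.29 over probes well above background on all arrays.

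Markers of lymphocytes, muscle and fat in the gland samples were lower by mean on Myd88-KO arrays, though none passed the test with the settings reported. Of the B cell markers 9 of 9 tested were lower on Myd88-KO arrays, with a median of -4.57. That median includes genes at background: it was -2.59 with signals below background set to the lowest above it, -1.25 with normexp and -0.90 over the 5 markers well above background on all arrays. Ms4a1, Fcrla and Faim3 were well above background on neither Myd88-KO array. The summed signal of the B cell markers was 3.40 and 3.31 on Myd88-KO arrays and 21.3 and 11.8 on Wildtype arrays. The study's flow cytometry, in submandibular glands of male mice, went the other way, with more B cells and plasma cells in the Myd88-null genotype. It counted cells rather than RNA, and the reason for the difference was not tested. T cell markers were lower in 11 of 11, with a median of -2.84 and sums of 12.7 and 12.3 against 25.7 and 18.2. Among them Cd3e (-0.058), Cd4 (-0.044) and Cd8b1 (-0.063) were nearly level, with arrays overlapping. The T cell median was -1.14 with normexp, with 1 gene higher, and -1.0 over the 7 well above background on all arrays. It was -1.56, with 1 gene higher, without Myd88-KO 1. There were 2 genes higher without Myd88-KO 2, 1 without Wildtype 1 and 0 without Wildtype 2. Skeletal muscle markers were lower in 10 of 10, with a median of -4.36 and sums of 3.53 and 3.55 against 23.3 and 130.5. Their median was -2.34 with normexp and -3.29 over the 6 well above background on all arrays. Adipocyte markers were lower in 7 of 7, with a median of -0.67 and sums of 167 and 263 against 359 and 356. limma called none of these genes. At an unadjusted p under 0.05 there were 8, 6, 9 and 2, all lower, beside 6.83% of all genes in that direction. Of the B cell, T cell and muscle markers, median scaling called 6, 6 and 9, trended and robust moderation 6, 4 and 1, and normexp 3, 1 and 1.

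The summed signal of the 10 macrophage genes was 45.8 and 40.3 on Myd88-KO arrays and 54.3 and 39.8 on Wildtype arrays. Most of it came from the bright probes of Csf1r and Lyz1, and without them it was 12.0 and 9.80 against 12.4 and 9.84. B and T cell sums, like the lysozymes, were highest on Wildtype 1, and muscle was highest on Wildtype 2. The part of these tissues in the lysozyme values and in those of the other macrophage genes was not tested. Neutrophil markers, whose cells also make Lyz2, were lower in 8 of 10 tested, with a median of -0.39, which was -0.13 with normexp. Their sums of 162 and 172 against 157 and 187 were mostly the probe of Csf3r, and without it were 6.13 and 5.78 against 7.44 and 5.84. By mean S100a8 was lowest (-1.54), with 1 Myd88-KO array not well above background, so its order against S100a9 (-1.45, well above background on all arrays) is not settled. Ctsg was at the upper end (0.32), and 6 of 16 were not tested, among them Ngp and Mmp8, which were well above background on Myd88-KO 2 and Wildtype 1 only. Dendritic cell markers were lower in 5 of 6, with a median of -1.21 that includes Flt3 and Clec9a, which were not well above background on 1 and on both Myd88-KO arrays. The median was -0.55 with signals below background set to the lowest above it and -0.26 with normexp. It was -0.20, with 2 of 5 higher, over markers with any probe well above background on all arrays. Of the 6 probes used above only 4 passed that filter, with Siglech alone higher. Another, dimmer probe therefore stood in for Flt3 or Clec9a there, and it was higher on Myd88-KO arrays. The summed signal was almost wholly Siglech, and without it was 0.52 and 0.51 against 4.02 and 2.05. Most of that gap was Ccr7, and without both genes the sum was 0.44 and 0.39 against 0.90 and 0.70. The list ran from Ccr7 (-4.32), which is also in the T cell list, to Siglech (0.083). Of 3 Paneth cell markers only Ang4 was tested, with -0.20, which turned to 0.73 without Wildtype 1 and was -1.12 without Wildtype 2, and Mmp7 was well above background on no array. Of 14 gland markers 9 were higher and 5 lower, with a median of 0.11, from Smr3a (-1.86) to Slc12a2 (0.42).

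At the ends of the marker lists were Faim3, a B cell receptor gene for IgM, and the muscle myosin gene Myh4. Neither was well above background on Myd88-KO arrays. With the floor used for Cd209b, their means were 40.2-fold and 218-fold lower there, again values for the array means and not lower limits. Wildtype arrays read 1.93 and 0.73 for Faim3 and 2.47 and 5.06 for Myh4. The smallest differences in those lists were -0.33 for Cd22 and -1.20 for Atp2a1. In the T cell list Cd3d was lowest by mean (-4.45), with 1 Myd88-KO array not well above background, so its order against Ccr7, well above background on all arrays, is not settled. The list ended at Cd4 (-0.044), and the adipocyte list from Plin1 (-1.09) to Retn (-0.081).

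**Figure D4:**
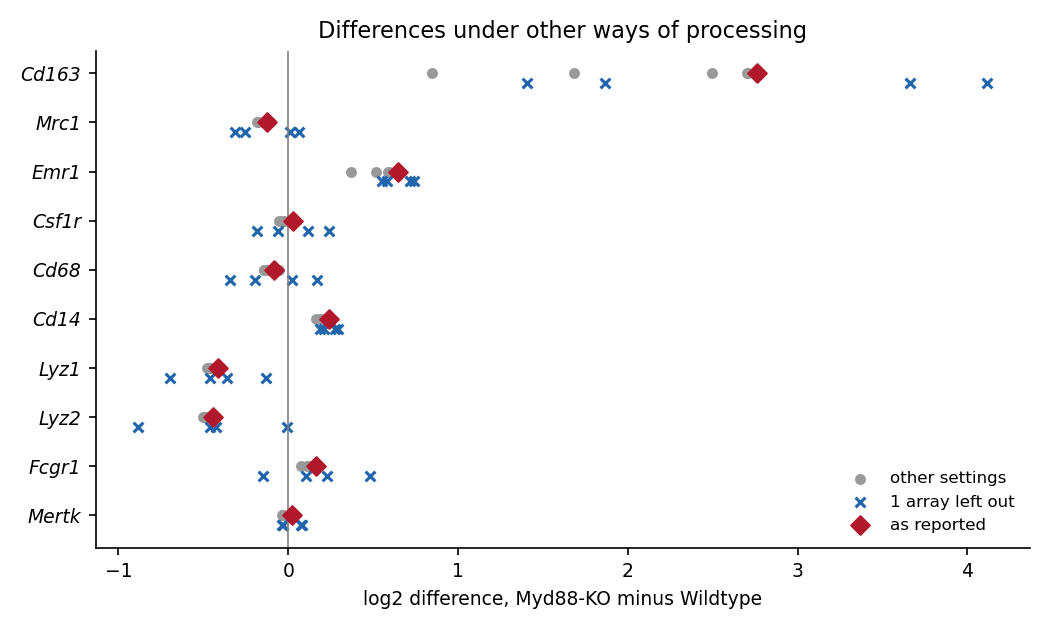
For each of the 10 genes the x axis gives the log2 difference (Myd88-KO minus Wildtype) as reported (red diamond), with 1 array left out (blue cross) and under the other settings (grey). Cd163 moves from 0.85 to 4.12, Emr1 and Cd14 stay above 0, both lysozymes stay below 0, and the other 5 genes cross 0.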

How the data were processed

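Each deposited file holds, per spot, the intensity that the authors obtained from Agilent software (Feature Extraction 10.7.3.1) after background subtraction and detrending, not normalized between arrays, along with raw and background intensity and flags. A deposited table with 4 sample columns, whose names match no label, was not used here. All 4 arrays share 1 slide and 1 scan. log2 intensity was taken minus the 75th percentile over non-control spots, spots flagged as outliers (99 to 131 an array) were left out, and no spot was saturated. A probe was tested where either group had it well above background on each of its arrays, and each gene was read by its brightest such probe. Member probes were also fitted one by one. The test was limma's moderated linear model (limma 3.58.1, lmFit and eBayes, R 4.3.3), and p-values were adjusted by Benjamini-Hochberg over all genes. The number of arrays limits the precision.

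Emr1 was matched to Adgre1 and Sfpi1 to Spi1 in RefSeq names. The members, lists and motifs were chosen with earlier results of these data known. Every member, and the highest and lowest gene of each list, are named by rule. The NF-kB consensus was searched after matches to its other form had been seen. Further partners and list genes were named by role after their values had been seen. The code of the fit was run on simulated data, with errors drawn from the model's own fitted variances and independent between genes. Such data cannot show how well the fit suits these arrays. Of the alternatives, 14 were planned and 2 added after seeing the data: normexp (offset 50), quantile normalization, detected-probe and median scaling, no or a stricter filter, mean of probes, the methods' t-test, trended with robust moderation, a replicate block, a crossed block, a floor on dim signals, and each array left out.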

Additional observations from a re-analysis of the deposited data

How the results depend on the processing

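Over all genes, limma called 0 with the settings reported, 79 with normexp, 402 with median scaling and 482 with trended and robust moderation, and the methods' t-test called 1 after adjustment. The other alternatives called 0. Genes at an unadjusted p under 0.05 numbered 3715, and 995 with median scaling, 2410 with the replicate block, 2307 without Wildtype 1 and 2192 without Wildtype 2. Of the 10 macrophage genes 1, Cd163, was called with median scaling, and 0 in every other alternative; the cause was not tested. At an unadjusted p under 0.05 there was 1 of the 10, and 2 or 3 in some settings. With the replicate number of the labels as a block, 0 of the 10 and 0 of all genes were called. Same-numbered arrays deviated in opposite directions (r = -0.37 across genes, which are not independent replicates), and a block of crossed pairs, chosen after seeing the data, also called 0.

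Leaving out 1 array at a time gave a median log2 difference of the 10 between -0.16 and 0.14. Of 159 values of single genes under the alternatives, 143 kept direction and side of the threshold, 15 turned sign, in Csf1r, Mertk, Mrc1, Cd68 and Fcgr1, and 1 passed the threshold. Csf1r turned to -0.030 with normexp, -0.056 with quantile normalization, -0.028 with scaling by detected probes and -0.023 with median scaling, and Mertk to -0.035 and -0.029 in the last pair of settings. With each array left out the ranges were -0.18 to 0.24 for Csf1r, -0.038 to 0.083 for Mertk, -0.31 to 0.066 for Mrc1, -0.34 to 0.17 for Cd68 and -0.15 to 0.48 for Fcgr1. Cd163 has no value under the stricter filter, since it was not well above background on Wildtype 2.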
